A study of Sus scrofa with 24 samples.

Results

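The genes described are those of the circadian clock. Of 10 listed clock genes, 5 were named by a probe set that the array's annotation gives to a single gene: ARNTL, CRY2, PER1, DBP and BHLHE40, with 7 probe sets between them. CLOCK, CRY1, PER2, TEF and NR1D2 had no such probe set and were not analysed here. The 5 genes stand among 6765 genes with a single symbol and 23935 probe sets tested. Messenger RNA was read on Affymetrix Porcine Genome arrays, in which each probe set of short oligonucleotides gives a fluorescence signal for 1 transcript. There were 24 arrays with 1 animal each, at 94 days post conception (94 dpc, before birth) and at 1, 28 and 188 days post natum (dpn, after birth), with 6 animals at each stage. All animals, at every stage, were offspring of German Landrace gilts that had received a high protein diet in gestation. Offspring of other diets were not analysed here, so the comparisons are between ages within this diet. Each stage drew its animals from 3 gilts and the mother of an animal is not given, so the 6 animals of a stage are not independent and the p-values are too small by an unknown amount. Sex and the hour of sampling are not given either, and stage and hour of sampling cannot be told apart.

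The circadian clock is a feedback loop inside each cell. ARNTL (also called BMAL1) pairs with CLOCK and switches on the period (PER) and cryptochrome (CRY) genes, whose proteins return to the nucleus and repress ARNTL and CLOCK. BHLHE40 (DEC1) is a further repressor that competes for the same promoter elements, RORA and the REV-ERB receptors drive and repress ARNTL transcription, and DBP is an output factor whose transcript swings strongly over the day. In skeletal muscle the clock times genes of fuel choice and of protein turnover, and in a tissue sampled at a single hour the level of a clock gene reflects the phase of the animals as well as their age.

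The sample labels name liver and the series title names muscle. Of 12 measured muscle markers the median signal lay between 21171 and 70779 over the 24 arrays, and the lowest stage mean among them was 1269, of ATP2A1 at 94 dpc. Stage means were 36644 to 67608 for the muscle marker CKM and 279 to 2116 for the hepatocyte marker ALB. By these levels the samples are read here as skeletal muscle, against the liver label, though some arrays also held high plasma protein signals. The 12 hepatocyte and plasma protein markers were variable, and their summed signal ran from 8028 to 59069 at 94 dpc, 2840 to 32166 at 1 dpn, 3202 to 7915 at 28 dpn and 1354 to 231965 at 188 dpn. Animals 1 to 3 of 188 dpn held the high sums of that stage, from 36701 upward, against at most 2477 in animals 4 to 6. Of the 12 muscle markers 8 rose from 94 dpc to 1 dpn and 12 from 94 dpc to 188 dpn, although with quantile normalization 3 rose and 1 fell at 1 dpn and 6 rose at 188 dpn. Animal 5 of 94 dpc had the lowest muscle marker median, 21171. Its summed macrophage marker signal was 24685, where the other arrays of 94 dpc ran from 2459 to 3841. Of 7 endothelial markers 4 fell at 1 dpn, 4 rose from 1 to 28 dpn and 4 fell from 28 to 188 dpn. Their summed signal ran from 6551 to 11649 at 94 dpc, 3919 to 6346 at 1 dpn, 6040 to 9046 at 28 dpn and 2732 to 3686 at 188 dpn. The part of these shifts in the clock gene results was not tested. For the EF1A control, 5′ signal over 3′ signal, a sign of RNA integrity, was 0.0963 to 0.135 in animals 1 to 3 of 1 dpn and at least 0.512 in the other arrays.

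Differences between stages were tested with limma on log2 signal over all 24 arrays. A gene was called when its adjusted p (Benjamini-Hochberg over all probe sets tested) was at most 0.05, and each gene is given by its brightest probe set unless stated. By the F test over the 4 stages 3 of the 5 clock genes were called (CRY2, ARNTL and BHLHE40), where 65.1% of all 6765 genes were. From 94 dpc to 1 dpn 1 clock gene rose (PER1) and 1 fell (BHLHE40), where 17.1% of all genes rose and 20.7% fell. From 1 to 28 dpn 1 rose (BHLHE40) and 1 fell (ARNTL), against 13.3% and 13.4% of all genes. From 28 to 188 dpn 2 rose (ARNTL and CRY2), against 6.16% that rose and 14.3% that fell among all genes.

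Over the longer spans the counts were similar. From 94 dpc to 28 dpn 1 clock gene rose (CRY2) and 1 fell (ARNTL), where 16.7% of all genes rose and 20.2% fell. From 1 to 188 dpn 2 rose (CRY2 and BHLHE40), where 17.4% of all genes rose and 27.5% fell. From 94 dpc to 188 dpn CRY2 rose, where 19.9% of all genes rose and 30.2% fell. The 2 of 5 that rose to 188 dpn, from 28 dpn and from 1 dpn, are a larger share than among all genes, while a count of 1 of 5 lies near the background shares. With 5 genes a single call moves the share widely, and the group was not tested against other genes. The median difference over the 5 genes was 0.27, -0.15 and 0.39 on the log2 scale for the 3 successive steps, beside -0.06, -0.02 and -0.12 over all genes. The comparisons share arrays, and the calls of a gene in several of them are not independent.

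**Figure D1:**
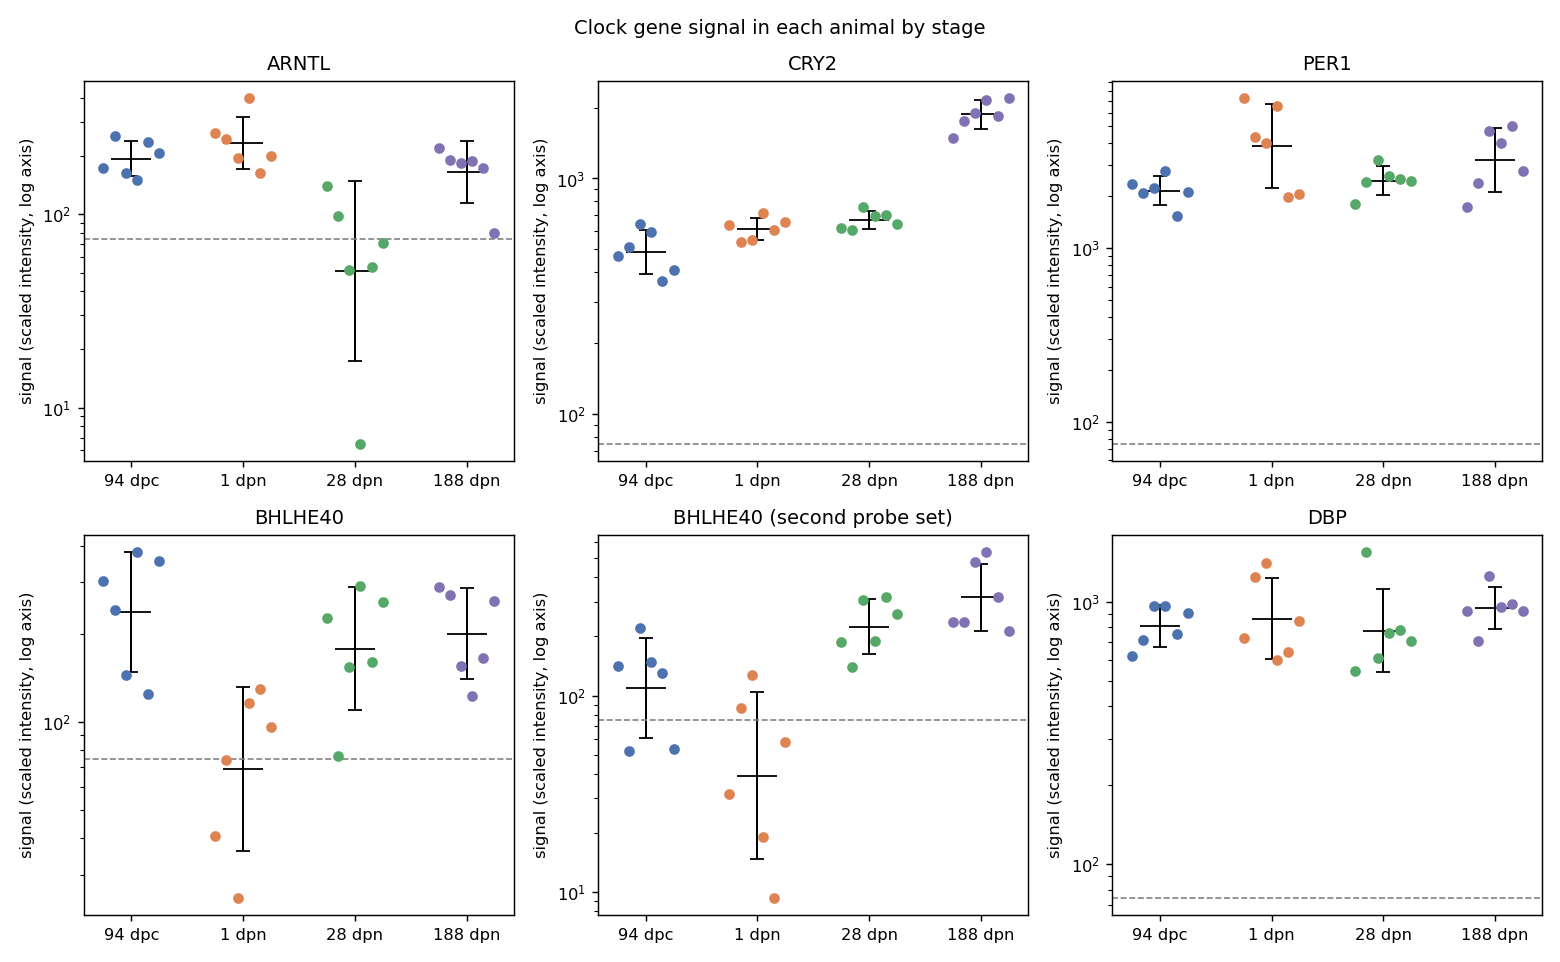
Each point is the deposited signal of 1 animal (log axis), by stage, for the 5 clock genes and the second BHLHE40 probe set. Horizontal bars are geometric means, whiskers the SD of log2 signal, and the dashed line the background level of 74.7. CRY2 at 188 dpn lies at 1491 or above, clear of every younger animal, while 4 of 6 ARNTL values at 28 dpn lie below the dashed line.

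ARNTL, the activator of the loop, was lower at 28 dpn than at each other stage. Its signal ran from 151 to 255 with a median of 191 at 94 dpc and from 163 to 399 with a median of 223 at 1 dpn. At 28 dpn it ran from 6.48 to 140 with a median of 62.4, and at 188 dpn from 79.7 to 222 with a median of 187. Every animal of 28 dpn lay below every animal of 94 dpc and of 1 dpn, whereas 28 and 188 dpn overlapped. As a bulk measurement of tissue, a lower signal can mean fewer cells that hold the transcript or less of it per cell, and these cannot be told apart.

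From 1 to 28 dpn ARNTL fell by 2.20 ± 0.48 (log2, SE; adjusted p = 0.0023), from a geometric mean of 234 to 50.9. Against 94 dpc the level at 28 dpn was lower by 3.82-fold (log2 difference -1.93 ± 0.48, adjusted p = 0.00428). From 28 to 188 dpn the gene rose by 1.70 ± 0.48 (adjusted p = 0.0196), and all 6 animals of 188 dpn lay above the mean of 28 dpn. The call was lost in a fit of the 2 stages alone, with the same difference of 1.70 (adjusted p = 0.0843), and without animals 1 to 3 of 188 dpn (1.44, adjusted p = 0.186). Only 2 of 6 arrays of 28 dpn exceeded the background level of 74.7, so the size of the fall is less certain than its direction. With values under background raised to it, the level at 28 dpn was 2.70-fold lower than at 1 dpn and 2.24-fold lower than at 94 dpc. The other 3 stages were ordered 1 dpn, 94 dpc, 188 dpn, and no pair of them passed the test (adjusted p of 0.465 to 0.75, with an interval of -1.23 to 0.77 for 188 dpn against 94 dpc).

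RORA, the nuclear receptor that drives ARNTL transcription, and NFIL3, a repressor at the sites that DBP binds, were the 2 measured of 12 further clock factors. RORA had stage means of 92.4, 70.3, 183 and 233 from 94 dpc to 188 dpn. It rose from 1 to 28 dpn by 1.38 ± 0.42 (adjusted p = 0.0214), from 1 to 188 dpn by 1.73 (adjusted p = 0.0023) and from 94 dpc to 188 dpn by 1.34 (adjusted p = 0.013). The mean of 1 dpn lay below background, so these rises carry uncertain sizes. At 28 dpn, where ARNTL had its lowest mean, RORA was thus above its level at 1 dpn. NFIL3 had means of 376, 277, 187 and 238 and did not pass; its largest difference was -1.01 from 94 dpc to 28 dpn (adjusted p = 0.0522). Without animals 1 to 3 of 188 dpn that difference passed (adjusted p = 0.0186), and from 94 dpc to 188 dpn NFIL3 then fell by 1.45 (adjusted p = 0.00495).

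CRY2, a cryptochrome and thus a repressor of ARNTL and CLOCK, was highest in the oldest animals. Its signal ran from 367 to 640 (median 489) at 94 dpc, from 536 to 713 (median 621) at 1 dpn, and from 605 to 755 (median 668) at 28 dpn. At 188 dpn it ran from 1491 to 2190 with a median of 1869. All 6 animals of 188 dpn lay above all 18 younger animals, and the 3 younger stages overlapped each other.

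The rise from 28 to 188 dpn was 2.81-fold (1.49 ± 0.15, log2 and SE, adjusted p = 8.72e-07), larger in absolute size than 94.3% of all genes in that step. Against 1 dpn CRY2 was 3.06-fold higher at 188 dpn (adjusted p = 1.92e-08) and against 94 dpc 3.83-fold (adjusted p = 5.59e-10). It also rose from 94 dpc to 28 dpn by 0.45 ± 0.15 (adjusted p = 0.0246), with overlap between the animals. That smaller rise was lost without animal 5 of 94 dpc (0.36, adjusted p = 0.0682), and also without animal 6 of 94 dpc or animal 3 of 28 dpn. The difference between 1 dpn and 94 dpc was 0.32 (adjusted p = 0.097), and it passed with quantile normalization (0.64, adjusted p = 0.00389) and with arrays centred on their median (0.65, adjusted p = 0.0046). It also passed at the same 0.32 with values under background raised to it (adjusted p = 0.0414). The 3 rises to 188 dpn passed in each of the 37 alternatives run, 24 of them omissions of a single animal. The log2 differences against 28 dpn were 1.41 to 1.76. Within a stage CRY2 was steady, with an SD of 0.12 to 0.31 in log2.

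PER1, a period gene that represses the loop and is also an acute target of glucocorticoids, varied widely between newborn animals. Its signal ran from 1525 to 2766 (median 2162) at 94 dpc, from 1958 to 7257 (median 4178) at 1 dpn, from 1793 to 3198 (median 2460) at 28 dpn and from 1726 to 5021 (median 3391) at 188 dpn. At 1 dpn animals 1 to 4 gave 7257, 4358, 3997 and 6590, above all animals of 94 dpc, while animals 5 and 6 gave 1958 and 2041, within the range of 94 dpc. The stage means from high to low were 3864 at 1 dpn, 3194 at 188 dpn, 2444 at 28 dpn and 2135 at 94 dpc.

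Of these, only 1 dpn and 94 dpc differed (1.81-fold, 0.86 ± 0.31, adjusted p = 0.0399), and the F test over the 4 stages did not pass (adjusted p = 0.086). The call was close to the threshold. Animals 1 to 3 of 1 dpn were those with the low 5′ to 3′ ratio, and without them the difference was 0.48 (adjusted p = 0.372). The call was also lost with quantile normalization (0.75, adjusted p = 0.0685), with the mean of its probe sets (0.38, adjusted p = 0.341) and in a fit of the 2 stages alone, with the same difference of 0.86 (adjusted p = 0.0903). Leaving out singly animals 1, 2, 3, 5 or 6 of 94 dpc gave 0.76 to 0.88 with an adjusted p of 0.0541 to 0.0901. Leaving out singly animals 1, 2, 3 or 4 of 1 dpn gave 0.67 to 0.85 with an adjusted p of 0.0623 to 0.105. In these single omissions the difference kept its direction while the p rose above the threshold. With arrays centred on their median the call was kept (1.18, adjusted p = 0.00843). The SD of log2 signal was 0.81 at 1 dpn and 0.61 at 188 dpn, against 0.28 at 94 dpc and 0.27 at 28 dpn. A second PER1 probe set exceeded background in 3 of 24 arrays and gave no usable level (-0.09 from 94 dpc to 1 dpn, adjusted p = 0.912).

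The 4 newborn animals with high PER1 also had the high summed signals of a list of 11 measured glucocorticoid-induced genes: 49602, 46363, 42659 and 51787 in animals 1 to 4, against 21171 and 23944 in animals 5 and 6. At 94 dpc these sums ran from 18215 to 30930. At 188 dpn the sums were high in all 6 animals, from 47601 to 70608, where PER1 ran from 1726 to 5021. Such sums weigh the brightest members most, at 1 dpn GLUL (mean 15697) and TSC22D3 (6877). The list medians at 1 dpn were 1408, 1529, 1563 and 3223 in animals 1 to 4, and 600 and 856 in animals 5 and 6. Animals 1 to 3 were also those with the low 5′ to 3′ ratio. The part of glucocorticoid exposure in the PER1 values was not tested.

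BHLHE40, the further repressor of the loop, was lowest in the newborn animals. By its brightest probe set the signal ran from 125 to 381 (median 272) at 94 dpc, from 25.0 to 130 (median 85.0) at 1 dpn, from 76.4 to 291 (median 193) at 28 dpn and from 122 to 289 (median 212) at 188 dpn. All 6 animals of 1 dpn lay below the mean of 94 dpc, but the ranges met, since the highest newborn value of 130 exceeded the lowest fetal value of 125. The gene fell from 94 dpc to 1 dpn by 1.78 ± 0.41 (log2, SE; adjusted p = 0.00185). It rose from 1 to 28 dpn by 1.37 ± 0.41 (adjusted p = 0.0195) and stood higher at 188 than at 1 dpn by 1.53 ± 0.41 (adjusted p = 0.00496). The mean of 1 dpn was 69.0, under background, and with such values raised to it the 3 folds were 2.58, 1.94 and 2.18. Levels at 94 dpc, 28 dpn and 188 dpn did not differ beyond their spread (adjusted p of 0.502 to 0.853).

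On the brightest probe set only 3 of 6 newborn arrays exceeded background. Without animals 1 to 3 of 1 dpn, which gave all 3 values under background, the fall at birth was 1.07 and narrowly missed the threshold (adjusted p = 0.0669), and the rises from 1 to 28 dpn (0.66, adjusted p = 0.348) and to 188 dpn (0.82, adjusted p = 0.157) were lost. The rise to 28 dpn was also lost without animal 3 of 1 dpn alone (1.07, adjusted p = 0.0554), and the rise to 188 dpn without animals 1 to 3 of 188 dpn (1.33, adjusted p = 0.0662).

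The second BHLHE40 probe set gave the same low point at 1 dpn and a different course afterwards. Its signal ran from 52.3 to 220 at 94 dpc, from 9.40 to 126 at 1 dpn, from 140 to 316 at 28 dpn and from 213 to 536 at 188 dpn. It fell at birth by 1.47 ± 0.50 (adjusted p = 0.0289), then rose by 2.51 to 28 dpn (adjusted p = 0.00106) with no overlap between those stages. Its mean at 1 dpn was 39.2, with 2 of 6 arrays above background, those of animals 2 and 3. The sizes are thus uncertain, and with values under background raised to it the folds were 1.46 and 2.67. At 188 dpn it stood 2.89-fold above 94 dpc (1.53 ± 0.50, adjusted p = 0.0178), whereas the brightest probe set showed -0.25 for that pair (adjusted p = 0.68). The probe sets thus share the newborn minimum and disagree on whether the gene was higher in grown than in fetal animals. They also ordered animals differently within stages. At 1 dpn animal 3 gave 25.0 on the brightest and 126 on the second, and animal 5 gave 130 and 9.40. At 188 dpn animal 4 gave 122, the lowest on the brightest, and 536, the highest on the second. At 28 dpn animal 2 was the lowest on both, at 76.4 and 140.

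DBP, the output factor, showed no difference between any stages in limma, neither adjusted nor at an unadjusted p under 0.05. Its signal ran from 620 to 967 (median 826) at 94 dpc, from 598 to 1406 (median 784) at 1 dpn, from 546 to 1545 (median 735) at 28 dpn and from 706 to 1255 (median 939) at 188 dpn. All 4 stages overlapped, and the stage means stood between 775 and 944. The largest difference was that from 28 to 188 dpn, 0.28 with a 95% interval of -0.22 to 0.79 on the log2 scale. From 94 dpc to 188 dpn it was 0.23 with an interval of -0.28 to 0.73. These intervals leave room for a change of up to 0.79 in log2, so equal levels were not shown. With arrays centred on their median the difference from 94 dpc to 188 dpn was 0.76 (adjusted p = 0.0159) and that of PER1 was 1.12 (adjusted p = 0.00845), both past the threshold. The spread between animals of a stage was larger at 1 and 28 dpn (SD of 0.51 and 0.53 in log2) than at 94 dpc and 188 dpn (0.26 each). At 28 dpn a single animal, with 1545, accounted for the upper end, and the next value was 777.

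**Figure D2:**
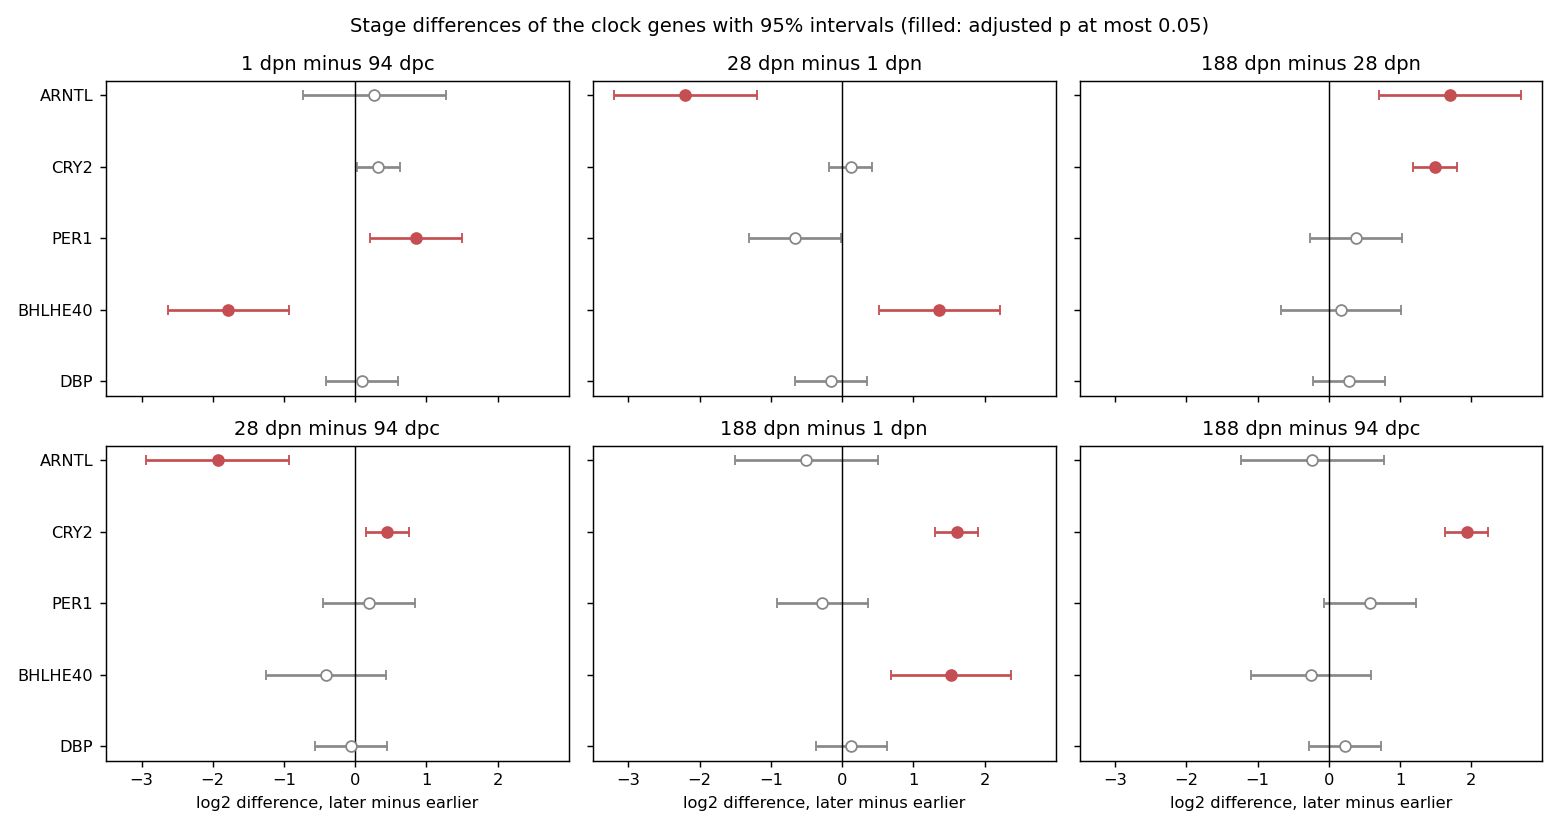
Log2 difference (later minus earlier stage) of each clock gene in the 6 comparisons, with 95% intervals. Filled points have an adjusted p of at most 0.05. ARNTL lies at -2.20 from 1 to 28 dpn, CRY2 at 1.49 to 1.94 in the comparisons with 188 dpn, and every DBP interval spans 0.

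The values depend in part on how the arrays are scaled. The deposited arrays share a trimmed mean near 499, but their medians differed. The array median ran from 154 to 188 at 94 dpc, 130 to 146 at 1 dpn, 138 to 147 at 28 dpn and 109 to 125 at 188 dpn. The median over probe sets of the log2 difference between stages was -0.15, 0.02 and -0.18 in the 3 successive steps. It was -0.29 from 94 dpc to 188 dpn. The clock gene differences are therefore to be read against both. Centring on the array median moved DBP from 94 dpc to 188 dpn by more than that median difference, from 0.23 to 0.76. Centring on the median moves all genes of a comparison alike, whereas quantile normalization moved CRY2 from 94 dpc to 1 dpn up, from 0.32 to 0.64, and PER1 down, from 0.86 to 0.75. Among called probe sets 32.8%, 56.0% and 28.2% were higher at the later stage in the successive steps as deposited. With quantile normalization the shares were 47.7%, 52.5% and 42.0%, and with arrays centred on their median 59.2%, 49.5% and 62.9%. From 94 dpc to 28 dpn the 3 shares were 37.3%, 50.3% and 60.5%, from 1 to 188 dpn 40.4%, 48.8% and 54.8%, and from 94 dpc to 188 dpn 31.3%, 48.9% and 60.8%. No clock gene call changed direction under either scaling.

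Animals of the same stage were then compared to see whether clock genes rose and fell together between them, since these genes run in fixed order over a day. With stage means removed, 0 of 10 gene pairs passed over 24 arrays after adjustment (two-sided permutation test of Pearson's r within stages, 100000 draws, Benjamini-Hochberg over the 10 pairs), and 2 pairs had an unadjusted p under 0.05. CRY2 and PER1, both repressors, gave r = 0.40 (permutation p = 0.0389, adjusted 0.194) and Spearman's rho = 0.37 (permutation p = 0.0925, adjusted 0.309). The value was 0.39 without the 2 arrays farthest from the median of CRY2. Within the stages r was 0.74, 0.17, 0.79 and 0.56 from 94 dpc to 188 dpn, above 0 in each. Without the 3 newborn arrays of low 5′ signal r was 0.53 over 21 arrays (permutation p adjusted 0.0379). With animals 1 to 3 of 188 dpn left out it was 0.26 over 21 arrays (permutation p adjusted 0.534), and with each gene's probe sets averaged it was 0.13 (permutation p adjusted 0.774).

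BHLHE40 and DBP, a repressor and an output of the loop, gave r = -0.56 (permutation p = 0.0154, adjusted 0.154) and rho = -0.41 (permutation p = 0.0808, adjusted 0.309). Without the 2 farthest arrays, animal 3 of 1 dpn and animal 2 of 28 dpn, r was -0.26, and leaving out either of them alone gave -0.45 and -0.43. With the BHLHE40 probe sets averaged r was -0.01 (permutation p adjusted 0.967). ARNTL and the period gene PER1, which peak at opposite times in a running clock, gave r = 0.02 over all arrays (permutation p = 0.908, adjusted 0.908). By stage this pair gave -0.76, 0.80, -0.44 and -0.04, with opposite signs at 94 dpc and 1 dpn. With 6 animals a stage these values are imprecise.

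**Figure D3:**
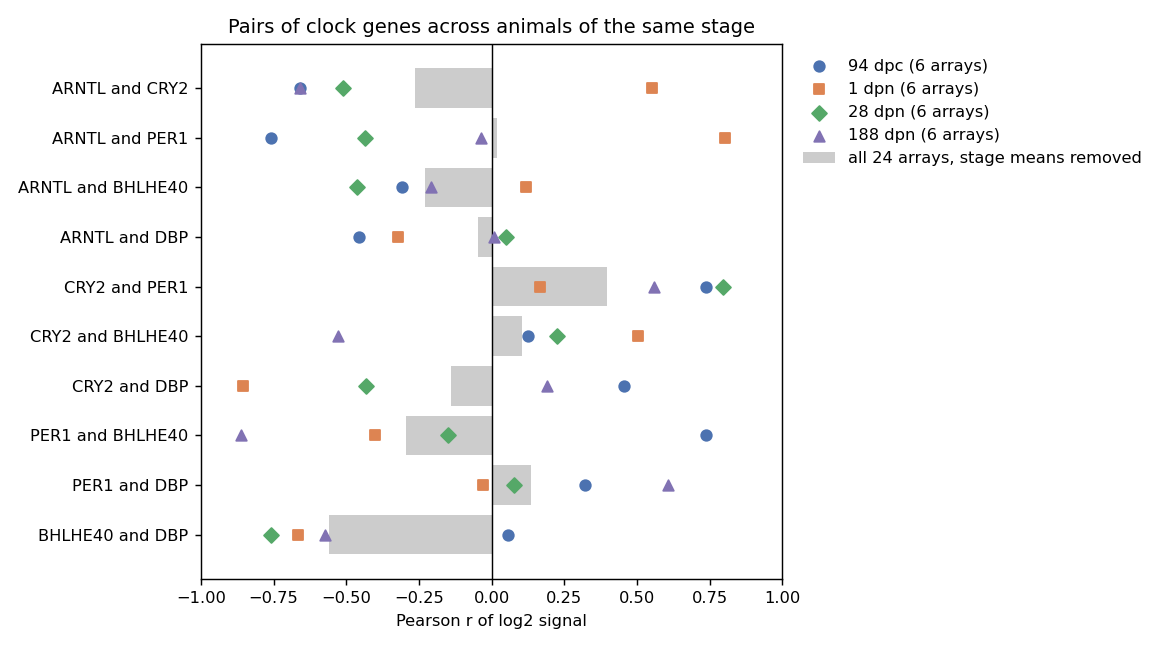
Pearson r of log2 signal for each of the 10 pairs of clock genes. Grey bars use all 24 arrays with stage means removed and symbols the 6 arrays of each stage. CRY2 and PER1 is the pair with all 4 stage values on the positive side, from 0.17 to 0.79, and no bar passed after adjustment.

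As a description, the genes whose stage-centred signal was most like that of DBP and of ARNTL over the 24 arrays were ranked among the 4958 and 4959 other genes whose mean exceeded background at every stage. For DBP these were GDI2, a regulator of Rab proteins in vesicle traffic, with r = 0.79, TNIP1, an inhibitor of NF-kappa-B signalling, with 0.73, the chromatin remodelling subunit ARID1B with 0.70, the oxysterol receptor GPR183 with 0.69 and the nuclear pore protein NUP85 with 0.69. The lowest values were -0.74 for the imprinted gene PEG3, -0.72 for RBM34 and -0.71 for PABPN1, which binds poly(A) tails. For ARNTL they were ACAD11, an enzyme of fatty acid breakdown, with 0.66, and PCCA, an enzyme of propionate breakdown, with 0.62. The others were LFNG with 0.64, SLC9A3R2 with 0.59 and TMEM265 with 0.57. The lowest were PLA1A and PPP2R5D with -0.64 each and HIRIP3 with -0.62. ARNTL (mean 50.9 at 28 dpn) and BHLHE40 (69.0 at 1 dpn) fell under background at a stage, so they were not ranked and could not appear. CRY2 and PER1, ranked for both, and DBP, ranked for ARNTL, were not among these. Spearman's rho was lower for several of the ARNTL matches, at 0.45 for ACAD11, 0.57 each for LFNG and PCCA, 0.30 for SLC9A3R2, 0.28 for TMEM265 and -0.40 for HIRIP3, and 4 of 6 ARNTL values at 28 dpn lay under background. The arrays share their stage, scaling and RNA quality, and values picked as the highest of so many are high by selection.

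Genes that act on clock proteins were counted next. Of 32 listed kinases, phosphatases, ubiquitin ligases and cofactors 15 were measured. Between 94 dpc and 188 dpn 6 rose and 3 fell, where 19.9% and 30.2% of all genes did, with a list median of 0.20 beside -0.19 over all genes. At 1 dpn 2 had risen and 1 had fallen, shares under the 17.1% and 20.7% of all genes. PRKAA2, the catalytic AMPK subunit of muscle whose kinase marks cryptochromes for breakdown, rose from 2149 to 7455 between 94 dpc and 188 dpn (1.79 ± 0.28, adjusted p = 1.54e-05), with most of it from 1 to 28 dpn (1.61 ± 0.28, adjusted p = 0.000278). USP2, a deubiquitinase that stabilises clock proteins, rose from 1057 to 3860 over the same span (1.87 ± 0.27, adjusted p = 4.97e-06). CSNK1D, the casein kinase that marks PER proteins for breakdown, fell from 1098 to 658 (adjusted p = 0.00222). DDB1, an adaptor of cullin ligases, rose at 1 dpn by 0.63 (adjusted p = 0.0131), and was lower at 188 than at 1 dpn by 0.97 (adjusted p = 0.0003). With animals 1 to 3 of 1 dpn left out, the differences at 1 dpn were 0.44 for DDB1 (adjusted p = 0.171), 0.78 for USP2 (adjusted p = 0.0747) and -0.43 for CSNK1D (adjusted p = 0.196), all short of the threshold, and 1 gene of the list rose there and 1 fell. The fall of CSNK1D to 188 dpn was not called with arrays centred on their median (-0.20, adjusted p = 0.433). Without animals 1 to 3 of 188 dpn 2 genes of this list rose from 94 dpc to 188 dpn and 2 fell, with quantile normalization 3 rose and 3 fell, and with arrays centred on their median 8 rose.

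Of 20 listed clock output genes of skeletal muscle 16 were measured. At 1 dpn 6 had risen and 2 had fallen, against 17.1% and 20.7% of all genes. With quantile normalization the rise of TCAP at 1 dpn (0.48, adjusted p = 0.0631) and the fall of TEAD1 (-0.57, adjusted p = 0.163) were not called. Between 94 dpc and 188 dpn 10 rose and 2 fell, against 19.9% and 30.2%, with a list median of 1.29 beside -0.19 over all genes. The largest differences from 94 dpc to 1 dpn were as follows. PDK4, which blocks glucose oxidation by inactivating pyruvate dehydrogenase, went from 370 to 6075 in that step (4.04 ± 0.44, adjusted p = 6.02e-07). The mitochondrial carrier UCP3 went from 43.0, under background, to 392 at 1 dpn (3.19 ± 0.35, adjusted p = 5.51e-07). LPIN1, a phosphatidate phosphatase and co-regulator of fat oxidation, went from 296 to 1352 at 1 dpn (2.19 ± 0.20, adjusted p = 5.24e-08). WEE1, the cell cycle kinase, fell from 918 at 94 dpc to 240 at 1 dpn (adjusted p = 1.23e-06).

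From 28 to 188 dpn, the step in which CRY2 rose, 5 of the 16 output genes rose and 2 fell, against 6.16% and 14.3% of all genes. FBXO32 (atrogin-1), a ubiquitin ligase of muscle protein breakdown, rose from 611 to 6839 (3.49 ± 0.44, adjusted p = 1.12e-05). KLF15, a glucocorticoid-responsive factor of amino acid use, rose from 330 to 1075 (1.70 ± 0.23, adjusted p = 2.62e-05). MYOD1, the myogenic factor that ARNTL and CLOCK are known to activate, fell from 986 to 266 (-1.89 ± 0.22, adjusted p = 5.71e-06). ARNTL rose in the same step, a call lost without animals 1 to 3 of 188 dpn (adjusted p = 0.186). A link between the changes of ARNTL and MYOD1 was not tested.

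The glucocorticoid-induced list, which shares FBXO32 and KLF15 with the output genes, had 5 of 11 measured members risen at 1 dpn, 6 from 28 to 188 dpn and 8 from 94 dpc to 188 dpn, the last with a median of 1.50. Among all genes 17.1%, 6.16% and 19.9% rose in these comparisons, and 20.7%, 14.3% and 30.2% fell. Members that fell numbered 0, 0 and 1 in the same order. The member that fell was SGK1, from 1513 at 94 dpc to 704 at 188 dpn (adjusted p = 0.00051). It was also lower at 188 than at 1 dpn (adjusted p = 0.0217). FKBP5, a co-chaperone of the glucocorticoid receptor and a sensitive target of it, had means of 111, 699, 453 and 1234 from 94 dpc to 188 dpn, with rises at 1 dpn of 2.65 ± 0.44 (adjusted p = 8.82e-05) and from 28 to 188 dpn of 1.45 ± 0.44 (adjusted p = 0.0294). GLUL, glutamine synthetase, rose from 7899 to 15697 at 1 dpn (adjusted p = 0.00191), fell to 8762 at 28 dpn (adjusted p = 0.0107) and rose to 22343 at 188 dpn (adjusted p = 0.000269). Without animals 1 to 3 of 1 dpn, 3 members rose and 1 fell at 1 dpn, and GLUL missed the threshold there (adjusted p = 0.0557). The fall of GLUL to 28 dpn was lost as well (adjusted p = 0.177). With quantile normalization of all arrays the rise of GLUL at 1 dpn was not called (0.48, adjusted p = 0.101). DUSP1, another member, was then called as lower at 1 dpn (-0.84, adjusted p = 0.0101).

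Immediate early genes, which answer handling and stress within minutes to hours of sampling, differed between stages too. Of 15 measured 5 fell at 1 dpn, where 20.7% of all genes did. Between 94 dpc and 188 dpn 7 rose and 5 fell, where 19.9% and 30.2% of all genes did, so the share that fell is near that background. From 28 to 188 dpn 3 rose and 2 fell, against 6.16% and 14.3% of all genes. FOS had means of 1703, 451, 1144 and 8203 from 94 dpc to 188 dpn and JUN of 2809, 2658, 3094 and 10028. Both rose from 28 to 188 dpn (2.84 ± 0.60, adjusted p = 0.00208, and 1.70 ± 0.34, adjusted p = 0.00151). In the same step IER3 fell by 1.44 ± 0.29 (adjusted p = 0.00156) and MYC by 1.23 ± 0.41 (adjusted p = 0.0441). With arrays centred on their median 2 of the 15 fell at 1 dpn, and the fall of FOS was not among them (adjusted p = 0.0522). Since circumstances at slaughter and hour of sampling are not in the labels, their part in the clock gene values was not tested.

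Temperature-responsive genes, which body temperature rhythms can drive, were measured for 9 of 11 listed. RBM3 and CIRBP, the cold-inducible RNA-binding proteins, fell with age. RBM3 went from 5926 at 94 dpc to 772 at 188 dpn (-2.94 ± 0.27, adjusted p = 9.76e-09), most of it from 1 to 28 dpn (-1.65 ± 0.27, adjusted p = 0.000159). CIRBP went from 1124 to 349 (-1.69 ± 0.18, adjusted p = 8.39e-08). Of the 7 heat shock genes and factors of the list 5 rose over this span, where 19.9% of all genes did, among them HSPH1 from 550 to 1601 (1.54 ± 0.31, adjusted p = 0.000348). Without animals 1 to 3 of 188 dpn 3 rose.

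**Figure D4:**
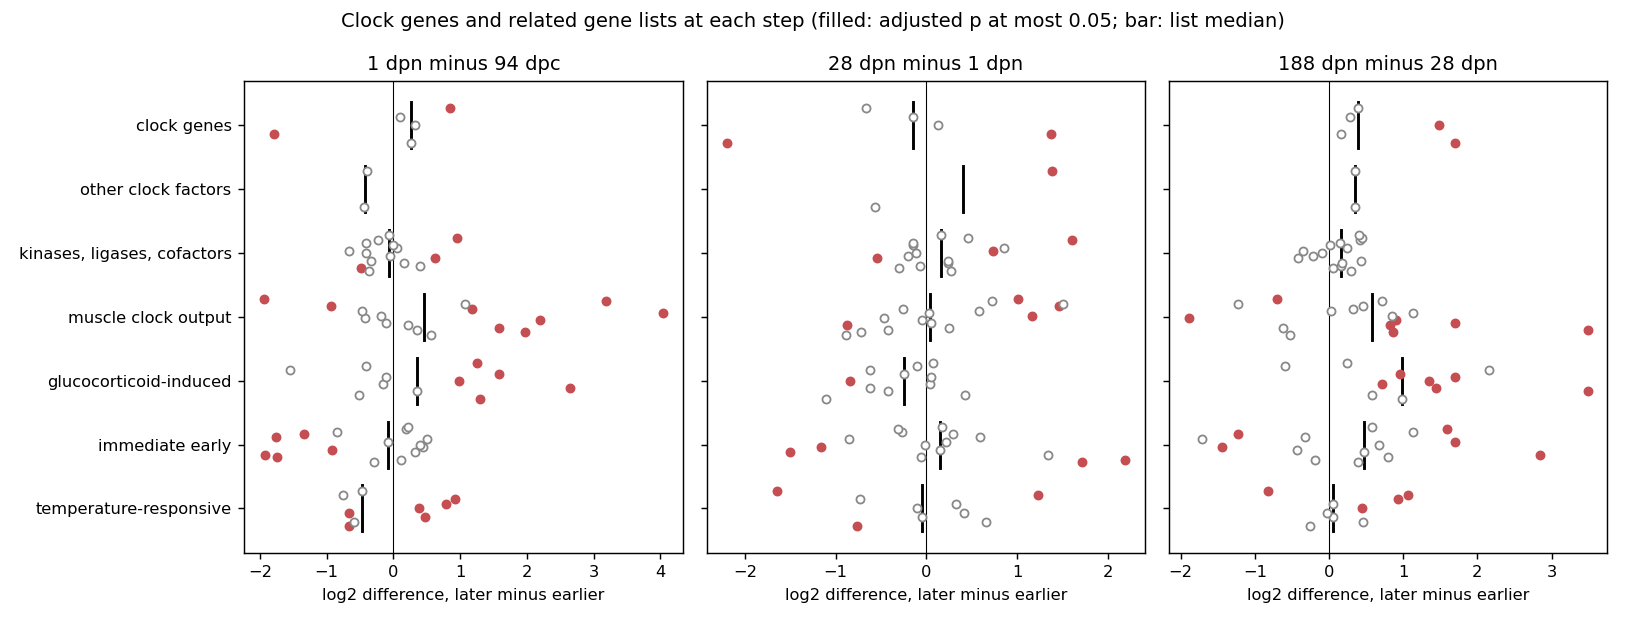
Log2 difference of each measured gene at the 3 successive steps, for the clock genes and 6 related lists. Filled points have an adjusted p of at most 0.05 and black bars are list medians. The output genes spread from -1.93 to 4.04 at 1 dpn, and the glucocorticoid-induced genes have a median of 0.98 from 28 to 188 dpn.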

How the data were processed

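The authors deposited a linear signal intensity for every probe set on every array, made with GCOS 1.1.1 per the submitters' processing notes. The summary and scaling settings are not given in the sources used here. Values were taken as log2 with no added constant, and 183 control probe sets were left out. Symbols came from the platform annotation: 10069 probe sets had 1 symbol, 198 several and 13668 none. Probe sequences and genome coordinates were not used here. The background level is the 95th percentile of 17 Tag control probe sets. limma 3.58.1 (R 4.3.3, with the data.table package at 1.17.8) fitted 4 stage means, with 20 residual degrees of freedom, and p-values were adjusted over 23935 probe sets. All 7 member probe sets are given, and up to 4 called members per list and comparison with the largest difference, and the brightest, could be named. For DBP and ARNTL the 5 most and 3 least similar genes were named. Correlations used Python 3.11.15 (numpy 2.4.6, pandas 2.3.3, scipy 1.17.1) and figures matplotlib 3.10.9. The fit and the correlations were tested on simulated data. Alternatives covered scaling, offsets of 16 and 64, a floor at background, the dimmest 30% of probe sets, probe set choice, model settings and left-out arrays. The members, lists, background level and tests were chosen with earlier results of these data known. The number of arrays limits the precision. Animal numbers are an order within a stage and pair nothing.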

Additional observations from a re-analysis of the deposited data

Results flagged for a closer look

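Of 20 groups of 6 arrays (5 clock genes at 4 stages, brightest probe sets), 3 held an animal far from the other 5, where chance flags about 1 in 20 groups. ARNTL was 6.48 in animal 4 of 28 dpn, the lowest of its stage, where the next was 51.6. Without that animal ARNTL at 28 dpn was still lower than at 1 dpn (-1.61, adjusted p = 0.000664) and than at 94 dpc (-1.34, adjusted p = 0.00142). ARNTL was 79.7 in animal 6 of 188 dpn, where the other 5 ran from 175 upward. DBP was 1545 in animal 2 of 28 dpn, where the next highest was 777.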

How the results depend on the processing

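The falls of ARNTL to 28 dpn (from 1 dpn and from 94 dpc) and the 3 rises of CRY2 to 188 dpn passed in each of 37 alternatives. These reuse the same arrays and are not independent. Of them 24 left out a single animal, and the omission of animal 5 of 94 dpc was counted again for its low muscle signal. ARNTL ranged from -2.49 to -1.24 against 1 dpn and from -2.22 to -1.03 against 94 dpc. Counts of clock genes called moved as follows, and the cause was not tested. For 1 dpn against 94 dpc the count of 2 became 1 with a gene's probe sets averaged, 1 with only the 2 stages compared, 0 without the 3 newborn arrays of low 5′ signal and 1 without animal 5 of 94 dpc, but 3 with arrays centred on their median and 3 with values under background raised to it, CRY2 being gained in both. For 28 against 1 dpn it went from 2 to 1 with only the 2 stages and 1 without the low 5′ arrays, and for 188 against 28 dpn from 2 to 1 with only the 2 stages and 1 without animals 1 to 3 of 188 dpn. For 28 dpn against 94 dpc it went from 2 to 1 without animal 5 of 94 dpc, and for 188 against 1 dpn from 2 to 1 without the low 5′ arrays and 1 without animals 1 to 3 of 188 dpn. For 188 dpn against 94 dpc it went from 1 to 3 with arrays centred on their median, 2 with probe sets averaged and 2 with array weights. Leaving out single animals gave 1 to 2 for 1 dpn against 94 dpc, 1 to 3 for 28 against 1 dpn and 1 to 2 for 28 dpn against 94 dpc. The count of correlated pairs went from 0 to 1 without the low 5′ arrays. BHLHE40 from 94 dpc to 188 dpn turned from -0.25 to 0.64 with the mean of its probe sets (adjusted p = 0.0388) and to 1.53 with the second probe set. PER1 from 94 dpc to 1 dpn turned from 0.86 to -0.088 with its second, mostly sub-background probe set. Signal near background limits ARNTL at 28 dpn and BHLHE40 at 1 dpn. No paired analysis was possible because the animal numbers follow accession order. The floor at background, the second probe sets and the alternatives for the lists were added after seeing the data.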
